A study of Homo sapiens with 12 samples.

Results

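The CXC chemokine ligand genes are followed here through the response of THP-1 macrophages to lipopolysaccharide (LPS). The members were 9 genes named by symbol, CXCL1, CXCL2, CXCL3, CXCL5, CXCL6, CXCL8, CXCL9, CXCL10 and CXCL11, and 8 of them stood among the 3281 genes of the 2 tables that the authors deposited. CXCL8 was listed under its older symbol IL8, which was matched through RefSeq synonyms, and CXCL5 was in neither table and was not analysed here. The 8 genes were divided into the 5 neutrophil-attracting ligands CXCL1, CXCL2, CXCL3, CXCL6 and CXCL8 and the 3 interferon-induced ligands CXCL9, CXCL10 and CXCL11.

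THP-1 is a human monocytic leukaemia line. The 12 libraries, 3 per group, came from S80A cells after 3 hr with LPS, wild-type (WT) cells after 3 hr with LPS, S80A cells before LPS (0 hr) and WT cells before LPS. S80A cells carried NFKB1 in a form whose p50 product has alanine in place of a serine that can be phosphorylated. Cells of all 4 groups had been turned into macrophages with the phorbol ester PMA (25 ng/ml, 72 hr) and rested for 4 days, and LPS was given at 10 ng/ml. The study asked how this serine bears on LPS-induced transcription. How the edited line was made, and whether it is 1 clone, the labels leave unsaid, so genotype and cell line cannot be told apart. They also do not call the replicates separate cultures, so p-values cover the spread among these libraries, part or all of which may be technical.

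CXC chemokines are small secreted proteins that steer leukocytes through G protein-coupled receptors. The neutrophil-attracting members carry a glutamate-leucine-arginine motif before the CXC cysteines. They recruit neutrophils through CXCR2, and some of them also through CXCR1. CXCL9, CXCL10 and CXCL11 lack that motif, act on CXCR3 of activated T cells and NK cells, and are classical targets of interferon signalling. In macrophages LPS induces the neutrophil-attracting genes through NF-κB and AP-1, while the interferon-induced genes also take signals from autocrine interferon-β through its receptor.

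Values are scaled reads, that is, the reads of a gene over the size factor of its library. Reads on the listed genes came to between 1924562 and 5789918 a library, a total that excludes other genes and so is not the depth. Over the listed genes, a first principal component (71.1% of the variance) divided the 2 times and a second (17.6%) the 2 genotypes. S80A replicate 1 stood apart from the other S80A libraries, nearer to WT, scoring 16.7 to 16.9 on the second component where the others scored 32.7 to 46.7. NFKB1 itself averaged 23198 ± 4621 scaled reads in S80A cells and 23290 ± 713 in WT cells at 3 hr (SD, n = 3), and a point edit leaves no mark on a read count, so this does not check the labels. Of 9 macrophage markers 2 were listed, CD14 and CD163, and their means went opposite ways between genotypes. At 3 hr CD14 averaged 1479 ± 396 scaled reads in S80A and 875 ± 194 in WT cells (SD, n = 3). CD163 averaged 785 ± 192 in S80A and 1128 ± 254 in WT cells. Both overlapped at 3 hr (limma adjusted p = 0.0721 for CD14 and 0.156 for CD163). At 0 hr CD14 overlapped, and CD163 was lower in every S80A library, as were 17.5% of all genes (limma adjusted p = 0.0509 for CD163). None of the 7 neutrophil, 6 T and NK cell, 6 fibroblast and endothelial or 3 epithelial markers was listed, and their levels were not analysed here. CD79B, the 1 listed of 4 B cell markers, had 8.39 to 12.7 scaled reads in S80A and 4.70 to 13.9 in WT libraries at 3 hr. In bulk RNA fewer expressing cells and less RNA per cell cannot be told apart.

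All 9 genes lie on chromosome 4 of GRCh38 with 4 exons each in GENCODE release 29. CXCL8 (73740506 to 73743716), CXCL6 (73836497 to 73849064) and CXCL1 (73869393 to 73871242) are on the plus strand. CXCL3 (74036589 to 74038807) and CXCL2 (74097035 to 74099293) are on the minus strand, and these 5 genes span 359 kb. CXCL9 (76001275 to 76007488), CXCL10 (76021117 to 76023497) and CXCL11 (76033682 to 76041415) fill 40.1 kb on the minus strand, 1.90 Mb further along. Of the stretches of 75 bases, the read length, 23 were shared between the transcripts of CXCL2 and CXCL3 and 3 between those of CXCL1 and CXCL2. These are 2.27% of the stretches of CXCL2, 2.30% of CXCL3 and 0.293% of CXCL1, so a small part of their reads may be divided between them. CXCL10 and CXCL11 lie within ART3 on the opposite strand, CXCL9 overlaps an antisense transcript and CXCL6 a pseudogene, and the strand setting of the counting is not given in the sources used here, so reads of these partners could be included.

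The sequence just upstream of the RefSeq start site is shown because 7 of the 8 genes share a 9-base κB-like word there. Windows of 40 bases were read from the RefSeq promoter table (build GRCh38.p14), each on the strand of its gene and 5′ to 3′. Capitals mark GGAATTTCC or its reverse complement GGAAATTCC, and in CXCL9, which has neither, GAAA, any 2 bases and GAAA again, the core of an interferon-stimulated response element.
CXCL1 (chr4:73869299-73869338, plus strand): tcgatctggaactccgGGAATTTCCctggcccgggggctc
CXCL2 (chr4:74099249-74099288, minus strand): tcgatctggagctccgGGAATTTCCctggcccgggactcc
CXCL3 (chr4:74038744-74038783, minus strand): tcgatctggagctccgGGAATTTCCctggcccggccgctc
CXCL6 (chr4:73836573-73836612, plus strand): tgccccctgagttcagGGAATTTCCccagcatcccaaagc
CXCL8 (chr4:73740462-73740501, plus strand): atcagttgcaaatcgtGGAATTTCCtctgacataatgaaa
CXCL10 (chr4:76023650-76023689, minus strand): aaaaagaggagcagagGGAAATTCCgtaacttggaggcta
CXCL11 (chr4:76036122-76036161, minus strand): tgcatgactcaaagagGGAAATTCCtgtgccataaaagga
CXCL9 (chr4:76007657-76007696, minus strand): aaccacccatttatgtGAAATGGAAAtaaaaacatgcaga

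The word reads forward in all 5 neutrophil-attracting genes, 77 to 91 bases before the start, and reads in reverse in CXCL10 (176 bases before the start) and CXCL11 (75 bases). Either orientation occurs in 0.461% of the 35116 promoter windows of 300 bases in the table. The windows of CXCL1 and CXCL3 are identical at 37 of 40 positions, and CXCL2 matches each of them at 35, whereas the window of CXCL8 matches that of CXCL1 at 19. Each window was placed on its word, so the 9 bases of the word match in advance in these comparisons. The longer NF-κB consensus, which overlaps this word, was found on either strand in 6 of the 8 promoters and in 5.91% of all windows. The interferon-response word was found on either strand in CXCL9 and CXCL10 and in no neutrophil-attracting gene, against 3.57% of all windows. The AP-1 word TGANTCA was found in CXCL8 and CXCL11, against 7.71%. These words were chosen after the sequences were seen, and a match is a string of letters, not a measured binding site. Distances are to the RefSeq start, which for CXCL2, CXCL3, CXCL6, CXCL8 and CXCL11 lies inside the GENCODE gene span given above, as do the printed windows of CXCL2, CXCL3, CXCL6 and CXCL11.

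The promoters of the most abundant member of each class are shown over 250 bases before the start. Capitals in CXCL8 mark TGACTCA and then GGAATTTCC. Capitals in CXCL10 mark the interferon-response word and then 2 matches to the NF-κB consensus, the first of which contains GGAAATTCC. The AP-1 word and the NF-κB consensus were each found in both classes, so these promoters do not stand for a contrast of the classes in those words.
CXCL8 (chr4:73740319-73740568, plus strand): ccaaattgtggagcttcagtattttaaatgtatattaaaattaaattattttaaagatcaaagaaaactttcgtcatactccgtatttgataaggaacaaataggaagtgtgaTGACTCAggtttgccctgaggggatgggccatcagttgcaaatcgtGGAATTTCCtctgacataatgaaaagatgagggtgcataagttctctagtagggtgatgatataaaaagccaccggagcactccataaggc
CXCL10 (chr4:76023498-76023747, minus strand): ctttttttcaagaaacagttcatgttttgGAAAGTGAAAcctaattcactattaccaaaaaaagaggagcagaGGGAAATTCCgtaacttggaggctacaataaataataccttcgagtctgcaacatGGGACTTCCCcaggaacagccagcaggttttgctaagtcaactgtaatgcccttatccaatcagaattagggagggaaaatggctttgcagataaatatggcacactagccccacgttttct

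LPS raised all 8 listed ligand genes in both genotypes, from a resting level at which 6 of the 8 averaged at most 17.7 scaled reads in either genotype. In the authors' deposited table of S80A cells all 8 rose, with log2 fold changes of 5.48 (CXCL6) to 9.93 (CXCL2), and 60.4% of the genes of that table rose. In the authors' deposited table of WT cells all 8 rose as well, by 2.83 (CXCL6) to 8.28 (CXCL9), and 61.7% of its genes rose. The tables hold genes chosen for this response, so a limma retest, which called all 8 in each genotype, is no separate support. CXCL2 ranked 5 among the 1516 rising genes of the S80A table and 32 among the 1441 of the WT table, and CXCL10 ranked 12 and 15. CXCL6, which encodes granulocyte chemotactic protein 2, was the weakest responder of the 8 in both tables and ranked 97 in S80A and 499 in WT cells. The median log2 fold change of the 5 neutrophil-attracting genes was 8.04 in S80A and 7.37 in WT cells, and that of the 3 interferon-induced genes 7.66 in S80A and 8.16 in WT cells. Over all rising genes the medians were 2.17 in the S80A and 2.20 in the WT table. These ranges, ranks and medians rest on the deposited fold changes, which for CXCL9 were 7.48 in S80A and 8.28 in WT cells. For the same libraries limma gave CXCL9 larger rises, of 9.75 log2 in S80A and 10.9 in WT cells. The ratio of 3 hr to 0 hr in reads per size factor was 1884 for CXCL9 and 1461 for CXCL2 in S80A cells. The order of the members thus depends on the measure.

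**Figure D1:**
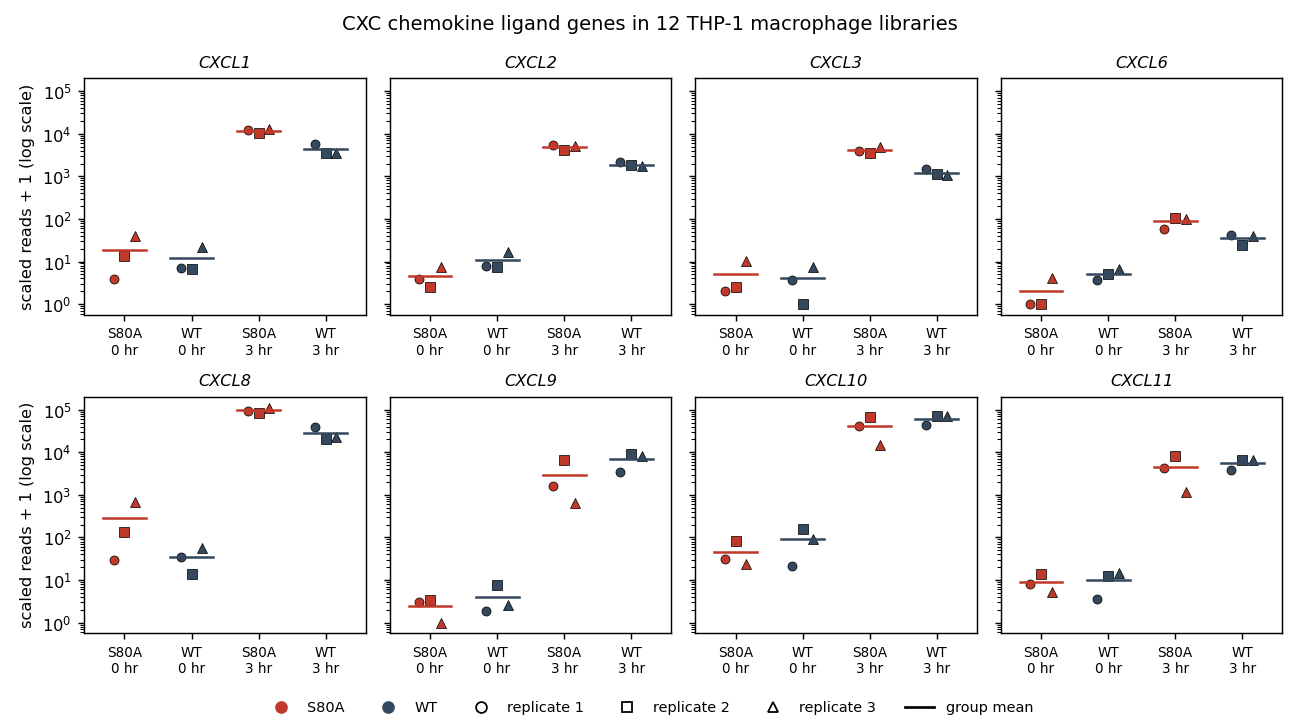
Scaled reads plus 1 (log axis) of the 8 listed CXC ligand genes in each of the 12 libraries, with S80A in red, WT in blue-grey, replicates 1 to 3 as circle, square and triangle, and a line at each group mean. At 3 hr all 3 S80A libraries lie above all 3 WT libraries for CXCL1, CXCL2, CXCL3, CXCL6 and CXCL8, while the groups overlap for CXCL9, CXCL10 and CXCL11.

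After LPS the neutrophil-attracting genes were higher in S80A than in WT cells, by 2.51-fold to 3.48-fold in the group means. CXCL8, interleukin-8, a principal human neutrophil chemoattractant, had 95630, 82646 and 111588 scaled reads in S80A replicates 1, 2 and 3 at 3 hr, against 38914, 20793 and 23472 in the WT replicates. The 2 groups did not overlap, and the lowest S80A library lay well above the highest WT library. The S80A mean was 3.48 times the WT mean, a difference of 1.85 ± 0.29 on the log2(scaled reads + 1) scale (SE, limma adjusted p = 0.00315). CXCL1, also called GROα, had 12075, 10262 and 12967 scaled reads in the S80A libraries, against 5858, 3572 and 3564 in the WT libraries. Again no WT library reached an S80A library, and the difference was 1.48 ± 0.26 log2 (SE, limma adjusted p = 0.0048).

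CXCL2 and CXCL3, the GROβ and GROγ genes that neighbour CXCL1 in sequence, behaved in the same way. CXCL2 had 5565, 4217 and 5064 scaled reads in the S80A libraries, against 2125, 1810 and 1710 in the WT libraries. CXCL3 had 4026, 3560 and 4871 in the S80A libraries, against 1456, 1122 and 1056 in the WT libraries. For both genes every S80A library was above every WT library. The differences were 1.39 ± 0.21 log2 for CXCL2 (SE, limma adjusted p = 0.00264) and 1.78 ± 0.23 for CXCL3 (limma adjusted p = 0.00185). CXCL6 was far less abundant, with 57.2, 102.4 and 100.7 scaled reads in the S80A libraries, against 41.1, 23.9 and 38.5 in the WT libraries. Its groups did not overlap, and S80A replicate 1 lay nearest to WT. The CXCL6 difference was 1.29 ± 0.33 log2 (SE, limma adjusted p = 0.0174).

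All 5 neutrophil-attracting genes were thus called higher in S80A cells at 3 hr, and all 5 had groups that did not overlap. Of all 3281 genes 29.2% were called higher and 35.7% had S80A libraries wholly above the WT libraries, and 31.3% were called higher among the 1045 genes that rose in both genotypes. The median difference of the 5 genes was 1.48 log2, against 0.19 over all genes and 0.28 over those 1045 genes. Under TMM scaling, which moves the median of all genes by -0.21 log2, the 5 differences were 1.09 to 1.64 log2 and all 5 passed. The calls rested on the fit of the 6 libraries at 3 hr. With all 12 libraries in the fit and 1 spread per gene, which takes in the wide scatter of the few reads at 0 hr, only CXCL2 passed (limma adjusted p = 0.0119), and the adjusted p-values were 0.0967 for CXCL1, 0.0536 for CXCL3, 0.0535 for CXCL6 and 0.109 for CXCL8. The CXCL6 call was also lost without S80A replicate 2 (limma adjusted p = 0.0606), without S80A replicate 3 (0.0548) or without WT replicate 2 (0.0595), while without S80A replicate 1 all 5 genes passed.

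**Figure D2:**
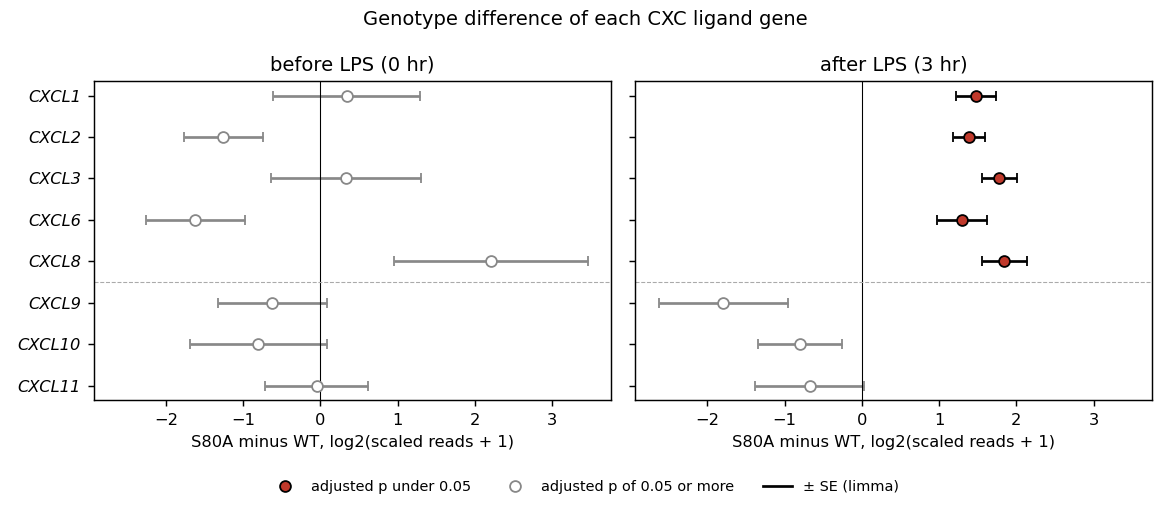
Difference between S80A and WT cells, S80A minus WT on the log2(scaled reads + 1) scale, for each CXC ligand gene at 0 hr (left) and 3 hr (right), with bars of 1 SE from limma on 6 libraries and red points for an adjusted p under 0.05. The 5 neutrophil-attracting genes above the dashed line lie between 1.29 and 1.85 at 3 hr, and the 3 interferon-induced genes below it lie between -1.79 and -0.68.

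The 3 interferon-induced genes averaged lower in S80A than in WT cells after LPS, but the libraries overlapped and none passed the test. CXCL10, or IP-10, had 41890, 65753 and 15218 scaled reads in the S80A libraries, against 43490, 72331 and 70283 in the WT libraries. S80A replicate 2 lay within the WT range, replicate 1 just under it and replicate 3 far under it. The difference was -0.80 ± 0.54 log2 (SE, limma adjusted p = 0.26). CXCL9, or MIG, had 1572, 6444 and 630.6 scaled reads in the S80A libraries, against 3467, 9324 and 8191 in the WT libraries. S80A replicates 1 and 3 were under all WT libraries and S80A replicate 2 was not, and the difference was -1.79 ± 0.84 log2 (SE, limma adjusted p = 0.121). Without S80A replicate 2 CXCL9 passed, at -2.69 log2 (limma adjusted p = 0.0184).

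CXCL11, or I-TAC, had 4376, 8200 and 1135 scaled reads in the S80A libraries, against 3741, 6706 and 6621 in the WT libraries. The groups overlapped, with both the highest and the lowest library in S80A. The difference of -0.68 ± 0.70 log2 (SE, limma adjusted p = 0.459) changed sign without S80A replicate 3, to 0.12. In all, 0 of the 3 genes were called lower by limma, against 17.7% of all genes, 0 had an unadjusted p under 0.05, and edgeR and DESeq2 on the recovered reads called 0. None had S80A libraries wholly under the WT libraries, against 23.3% of all genes. That the 2 classes differ in their genotype difference was not tested as such.

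The libraries at 3 hr differed from each other within a genotype, and the 2 classes were high in different libraries. The highest S80A library exceeded the lowest by 10.2-fold for CXCL9, 7.22-fold for CXCL11 and 4.32-fold for CXCL10, but by 1.26-fold for CXCL1 and 1.35-fold for CXCL8. In S80A cells replicate 3 had the most CXCL1, CXCL3 and CXCL8 and the least of all 3 interferon-induced genes, and replicate 2 had the least CXCL1, CXCL2, CXCL3 and CXCL8 and the most of the 3 interferon-induced genes. In WT cells replicate 1 had the most of all 5 neutrophil-attracting genes and the least of all 3 interferon-induced genes. In S80A cells CXCL2 was highest in replicate 1, and CXCL6 was highest in replicate 2 and lowest in replicate 1. With 3 libraries a genotype this is an order of values and was not tested.

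**Figure D3:**
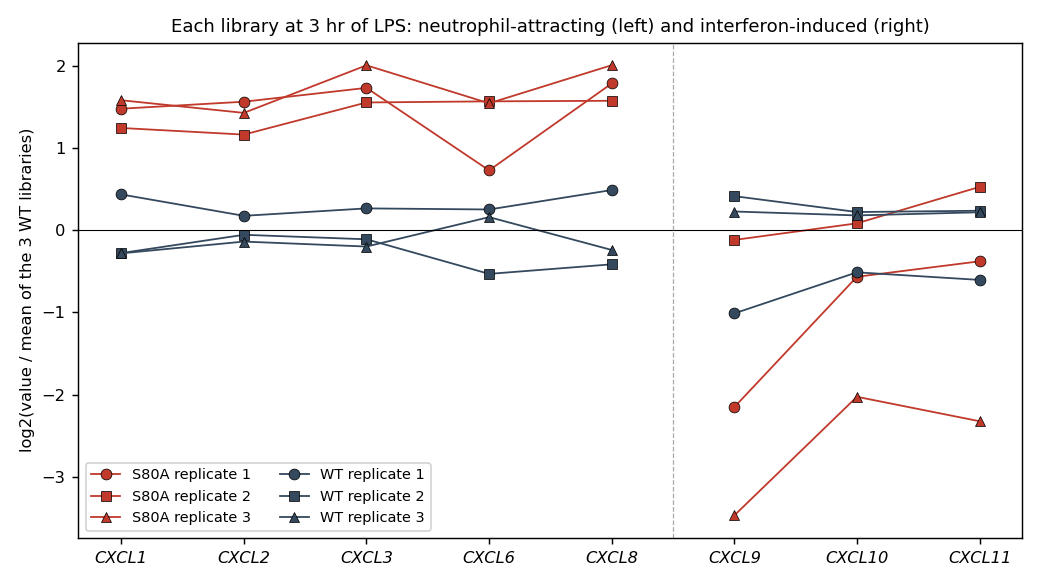
Each of the 6 libraries at 3 hr as a line over the 8 CXC ligand genes, as the log2 ratio of its scaled reads to the mean of the 3 WT libraries (S80A red, WT blue-grey). On the left the S80A lines run from 0.73 to 2.01, all above the WT lines; on the right S80A replicate 3 falls to -3.47 for CXCL9, and WT replicate 1 is the lowest WT library.

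Divided by the length of the longest protein-coding transcript, the levels give the make-up of the ligand mRNA. At 3 hr CXCL8 led in S80A cells with 56669 ± 8502 scaled reads per kb, followed by CXCL10 with 34825 ± 21497, whereas CXCL10 led in WT cells with 52751 ± 13685, followed by CXCL8 with 16262 ± 5737 (SD, n = 3). In S80A cells CXCL8 was above CXCL10 in replicates 1 and 3 and under it in replicate 2, while in WT cells CXCL10 was above CXCL8 in all 3 libraries. CXCL1 came next in both genotypes, at 10727 ± 1256 scaled reads per kb in S80A and 3948 ± 1205 in WT cells, where CXCL11 at 3543 ± 1051 was within its spread. CXCL2, CXCL3 and CXCL11 then lay between 2846 and 4063 in S80A cells and did not differ beyond their spread, and CXCL9, CXCL2 and CXCL3 between 1127 and 2553 in WT cells. CXCL9 in S80A cells had 1052 ± 1139, and CXCL6 was the lowest in both genotypes, at 50.5 ± 14.9 in S80A and 20.1 ± 5.41 in WT cells.

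The 5 neutrophil-attracting genes made up 66.0%, 50.5% and 86.1% of the summed scaled reads per kb of the 8 ligands in S80A replicates 1, 2 and 3 at 3 hr, against 43.5%, 20.7% and 22.5% in the WT replicates. The S80A shares were all above the WT shares, with WT replicate 1 the nearest. The ratio of CXCL8 to CXCL10 per kb was 1.57, 0.867 and 5.06 in the S80A libraries, against 0.617, 0.198 and 0.230 in the WT libraries, again without overlap. These shares rest on the genes whose differences are described above and are no further evidence.

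Before LPS the members were near the limit of detection apart from CXCL8 and CXCL10, and which were called depended on the fit. In the main limma fit, which does not pair the libraries, 0 of 8 were called. Of all genes 20.1% were called higher and 10.6% lower in that fit, and 1 member, CXCL6, had an unadjusted p under 0.05. With the replicate number as a block, which pairs the libraries at 0 hr, CXCL2 was called lower (limma adjusted p = 0.022). By edgeR and by DESeq2 1 of 8, CXCL8, was called. CXCL8 had 27.9, 131.1 and 695.8 scaled reads in S80A replicates 1, 2 and 3 at 0 hr, against 34.6, 12.9 and 54.0 in the WT replicates. S80A replicates 2 and 3 were above all WT libraries and replicate 1 was within them. The difference of 2.20 ± 1.25 log2 did not pass by limma (SE, adjusted p = 0.231) but did by edgeR (adjusted p = 0.0419) and by DESeq2 (adjusted p = 0.0353) on the recovered reads. CXCL10 had 29.9, 81.4 and 23.1 scaled reads in the S80A libraries, against 20.8, 160.1 and 92.0 in the WT libraries, which overlapped (limma adjusted p = 0.512).

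CXCL2 was lower in all 3 resting S80A libraries, with 2.99, 1.55 and 6.30 scaled reads, than in any WT library, with 6.93, 6.43 and 16.1, on 11 reads in S80A and 36 in WT cells. Of all genes 17.5% were likewise lower in every S80A library. The difference of -1.26 ± 0.51 log2 did not pass (SE, limma adjusted p = 0.12), but it did with the replicate number as a block, which pairs the libraries at 0 hr (limma adjusted p = 0.022). CXCL6 had 0, 0 and 3.15 scaled reads in the S80A libraries, against 2.60, 4.02 and 5.65 in the WT libraries, on 3 and 15 reads, and the groups overlapped (limma adjusted p = 0.111). Both genes were called lower when all 12 libraries entered the fit (limma adjusted p = 0.03 for CXCL2 and 0.0315 for CXCL6). CXCL1 had 2.99 to 37.8 scaled reads in S80A and 5.63 to 21.0 in WT libraries. CXCL3 had 0.996 to 9.45 in S80A and 0 to 6.45 in WT libraries. CXCL9 had 0 to 2.33 in S80A and 0.866 to 6.43 in WT libraries, and CXCL11 4.198 to 13.2 in S80A and 2.60 to 13.7 in WT libraries.

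The LPS response itself was larger in S80A than in WT cells for CXCL2 and CXCL6, the 2 neutrophil-attracting members whose resting mean was lower in S80A cells. The interaction term of CXCL2 was 2.65 ± 0.55 log2 (SE, limma adjusted p = 0.0209), with log2 fold changes in the authors' deposited tables of 9.93 in S80A and 7.37 in WT cells. That of CXCL6 was 2.91 ± 0.72 (SE, limma adjusted p = 0.0441), with 5.48 in the authors' deposited table of S80A cells and 2.83 in that of WT cells. Since S80A cells had 3 CXCL6 reads over the 3 libraries at 0 hr, the ratio of 3 hr to 0 hr in reads per size factor was 93.4 with an exact 95% counting interval of 31.5 to 456, against 8.29 (4.78 to 15.4) in WT cells. The counting interval covers counting error only. So 2 of 8 members were called higher, against 2.69% of the 1562 genes in both tables, and 0 were called lower, against 1.79%. The call of CXCL2 was lost without WT replicate 2 at 3 hr (limma adjusted p = 0.0559) or WT replicate 3 at 3 hr (0.0597), and that of CXCL6 in 12 of 23 alternative settings, with adjusted p-values up to 0.121.

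For the other 6 members the interaction term did not pass. It was 1.14 ± 0.98 log2 for CXCL1 and 1.45 ± 0.99 for CXCL3 (SE, limma adjusted p = 0.624 and 0.499). It was -0.36 ± 1.26 for CXCL8 (SE, limma adjusted p = 0.935), whose S80A replicate 3 was already high at 0 hr, and the sign turned without that library, to 0.81. Among the interferon-induced genes it was -1.17 ± 1.15 for CXCL9, 0.004 ± 1.05 for CXCL10 and -0.63 ± 1.01 for CXCL11 (SE, limma adjusted p from 0.687 to 1). The interaction and the genotype difference at 3 hr share the same 6 libraries and are not separate evidence.

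The receptor of the neutrophil-attracting ligands was lower in S80A cells both before and after LPS. CXCR2, which binds all of them, had 15.7, 8.05 and 10.8 scaled reads in the S80A libraries at 3 hr, against 49.3, 47.8 and 57.8 in the WT libraries, and 113.5, 67.5 and 43.0 in S80A against 374, 351 and 414 in WT libraries at 0 hr. The groups were apart at both times, with differences of -2.11 ± 0.27 log2 at 3 hr and -2.44 ± 0.36 at 0 hr (SE, limma adjusted p = 0.00183 and 0.00891). LPS lowered CXCR2 in both genotypes, with log2 fold changes of -2.54 in S80A and -2.80 in WT cells in the authors' deposited tables. Its interaction term of 0.32 ± 0.46 log2 did not pass (SE, limma adjusted p = 0.834). ACKR3, an atypical receptor that scavenges CXCL11 and CXCL12, had 7848, 8084 and 9696 scaled reads in the S80A libraries at 3 hr, against 864, 393 and 391 in the WT libraries. Its groups were far apart, by 4.06 ± 0.35 log2 (SE, limma adjusted p = 0.000807), and its LPS response was larger in S80A cells by 3.02 ± 0.52 log2 (SE, limma adjusted p = 0.00798).

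CXCR4, the receptor of CXCL12, had 229 ± 34.8 scaled reads in S80A and 1114 ± 130 in WT cells at 0 hr (SD, n = 3), and the 2 genotypes overlapped at 3 hr. It was lower in all resting S80A libraries (limma adjusted p = 0.00328), and its LPS response differed by 2.06 ± 0.40 log2 (SE, limma adjusted p = 0.0151). CXCR5, the CXCL13 receptor of B cells, had 75.1, 40.3 and 65.9 in S80A and 32.9, 6.23 and 16.1 in WT libraries at 3 hr (limma adjusted p = 0.0311). It was already higher in S80A cells at 0 hr, with 7.97, 52.7 and 58.8 against 0.866, 0.804 and 0.807 in WT libraries (limma adjusted p = 0.0162), the WT values resting on 3 reads. Of the 10 receptor genes on the list 4 were in the tables. At 3 hr 2 of these were called higher and 1 lower, against 29.2% and 17.7% of all genes. CXCR1 and CXCR3 were not listed. Of 8 other CXC ligand genes 3 were listed, CXCL12, CXCL13 and CXCL14. At 3 hr 2 of these were called lower, against 17.7% of all genes. CXCL13, a B cell attractant, had 7.85, 3.45 and 0 scaled reads in S80A and 37.6, 14.5 and 30.0 in WT libraries, and CXCL14 had 3.36, 1.15 and 16.8 in S80A and 23.5, 19.7 and 31.0 in WT libraries (limma adjusted p = 0.0214 and 0.0427). CXCL12 had 110 to 469 in S80A and 67.0 to 203 in WT libraries, which overlapped.

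**Figure D4:**
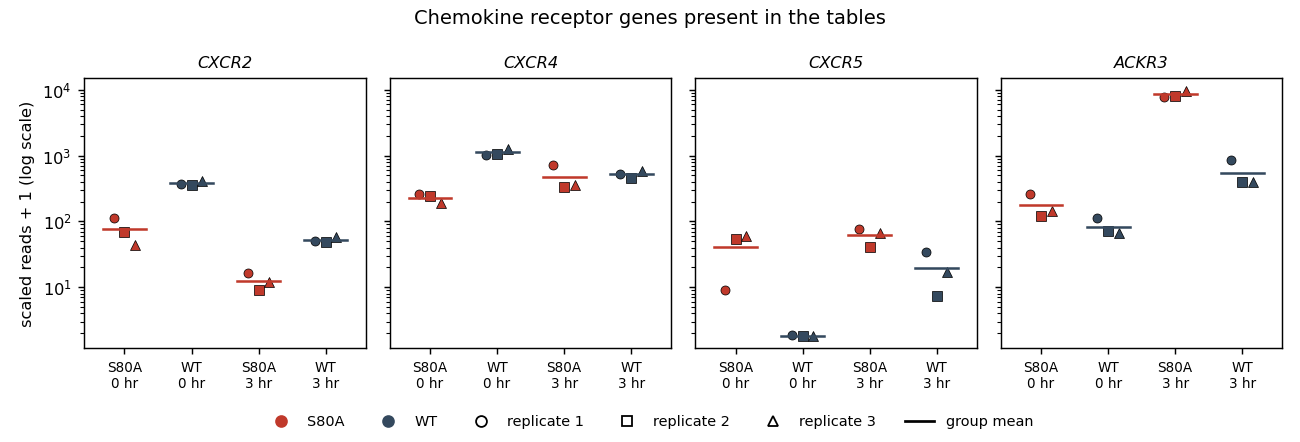
Scaled reads plus 1 (log axis) of the 4 listed chemokine receptor genes in each library, with S80A in red, WT in blue-grey, replicates 1 to 3 as circle, square and triangle, and a line at each group mean. CXCR2 is lower in all S80A than in all WT libraries at both times, and ACKR3 at 3 hr is at 7848 to 9696 in S80A against 391 to 864 in WT libraries.

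The genes that lie upstream of the ligands were set beside them. Of 12 NF-κB subunits and inhibitors all 12 rose with LPS in both of the authors' deposited tables. Of all genes 60.4% rose in the S80A and 61.7% in the WT table. At 3 hr 1 of the 12 was called higher and 1 lower in S80A cells, against 29.2% and 17.7% of all genes. Their median difference at 3 hr was 0.12 log2, against 1.48 for the 5 neutrophil-attracting ligands. TNFAIP3, the ubiquitin-editing inhibitor A20, had 77204, 66916 and 53199 scaled reads in S80A and 33270, 30890 and 28893 in WT libraries, 1.07 ± 0.21 log2 apart (SE, limma adjusted p = 0.00737). NFKB2, the p100 precursor of p52, had 10710, 8669 and 7641 in S80A and 12782, 14822 and 14257 in WT libraries (difference -0.64 ± 0.21 log2, SE, limma adjusted p = 0.0421). BCL3, a nuclear IκB protein that binds p50, and NFKBIA, the gene of IκBα, did not pass (limma adjusted p = 0.333 and 0.217).

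Of 14 genes that govern the decay of chemokine mRNA or act with NF-κB at CXCL8, 10 were listed. At 3 hr 3 of them were called higher in S80A cells and 0 lower, against 29.2% and 17.7% of all genes. At 0 hr 5 were called higher, against 20.1% of all genes. ATF3, a stress-induced factor of the AP-1 type, had 9498, 11624 and 6270 scaled reads in S80A and 4127, 5822 and 5087 in WT libraries at 3 hr (limma adjusted p = 0.0499). The gap was already there at 0 hr, with 875, 2389 and 1950 in S80A and 229, 356 and 292 in WT libraries (limma adjusted p = 0.0123). The authors' log2 fold changes of ATF3 were 2.32 in S80A and 3.96 in WT cells, and the interaction did not pass (limma adjusted p = 0.108). ZC3H12A, the Regnase-1 ribonuclease that degrades inflammatory mRNA, had 11772, 8310 and 7897 in S80A and 14552, 13756 and 12752 in WT libraries, which did not overlap but did not pass (limma adjusted p = 0.074). ZFP36, or tristetraprolin, and JUNB did not pass at 3 hr (limma adjusted p = 0.421 and 0.816).

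Of 16 genes of the interferon route to CXCL9, CXCL10 and CXCL11, 12 were listed. At 3 hr 4 of them were called higher in S80A cells and 1 lower, against 29.2% and 17.7% of all genes. Those called higher were the receptor genes IFNAR2, IFNGR1 and IFNGR2 and the kinase gene JAK1. Their differences were 1.04, 0.997, 1.38 and 1.36 log2 in that order (limma adjusted p from 0.00201 to 0.0103). IFNB1, which encodes interferon-β, had 172, 210.5 and 243 scaled reads in S80A and 136, 331 and 310.5 in WT libraries at 3 hr, and the groups overlapped (limma adjusted p = 0.652). In WT cells replicate 1 had the least IFNB1, as it did of the 3 ligands, while in S80A cells replicate 3 had the most IFNB1 and the least of the ligands. IRF7, an interferon-induced regulator, was the gene called lower, with 2227, 2996 and 1711 in S80A and 3275, 5344 and 4946 in WT libraries (difference -0.97 ± 0.30 log2, SE, limma adjusted p = 0.0346). IRF1 and STAT2 overlapped between genotypes (limma adjusted p = 0.323 and 0.176).

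Among proteases that trim chemokines and their inhibitors, 4 of 14 were listed. In S80A cells 3 were called higher at 3 hr and 3 at 0 hr, against 29.2% and 20.1% of all genes. MMP1, which cleaves several chemokines including CXCL12, had 840, 3393 and 4641 scaled reads in S80A and 170, 162 and 177 in WT libraries at 3 hr (limma adjusted p = 0.00334). MMP12, the macrophage elastase that inactivates neutrophil-attracting CXC ligands, had 159, 183 and 206 in S80A and 92.8, 98.6 and 96.4 in WT libraries (limma adjusted p = 0.00864). Both genes were already higher in S80A cells at 0 hr (limma adjusted p = 0.0358 for each). MMP1 then had 40.8, 647 and 1354 in S80A and 0, 7.24 and 8.07 in WT libraries. MMP12 then had 4.98, 31.8 and 99.7 in S80A and 0.866, 0.804 and 0 in WT libraries. DPP4, a dipeptidyl peptidase that trims CXCL9, CXCL10 and CXCL11, overlapped between genotypes (limma adjusted p = 0.069).

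The genes most like CXCL8 and CXCL10 were sought by Pearson correlation of log2(scaled reads + 1) over the 12 libraries, among 1634 listed genes at or above the median level. For CXCL8 they were USP12, a deubiquitinase (r = 0.995), CD44, the hyaluronan receptor (0.994), and MED13, a Mediator subunit (0.994), and for CXCL10 they were IFIT2 (0.998), IFIT3 (0.997) and DDX58 (0.997), which are antiviral genes induced by interferon. The 12 libraries fall into 2 times, so LPS carries most of these coefficients. At 3 hr IFIT2 had 49509, 38956 and 14324 scaled reads in S80A and 37005, 50651 and 47769 in WT libraries. S80A replicate 3 was the lowest S80A library for IFIT2, IFIT3 and DDX58, as for CXCL10. The highest S80A library was replicate 1 for IFIT2 and IFIT3, but replicate 2 for DDX58 and CXCL10. USP12 had 10861, 9458 and 8532 in S80A and 5806, 5719 and 6047 in WT libraries at 3 hr, which did not overlap (limma adjusted p = 0.0214). Among the S80A libraries at 3 hr USP12, CD44 and MED13 were each lowest in replicate 3, where CXCL8 was highest.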

How the data were processed

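RNA-seq was run on 12 libraries of THP-1 cells, 3 in each of 4 groups of genotype and time, from poly(A) RNA with a stranded kit and reads of 75 bases from 1 end, 20 M aimed for, per the labels' protocols. Per the submitters' processing notes the build was GRCh38 and the tools included HISAT, HTSeq and DESeq2, besides FastQC, StringTie and Cuffdiff. Versions, annotation and the strand setting are not given in the sources. The authors deposited 1 table per genotype with a signal per gene in all 12 libraries, a log2 fold change of 3 hr over 0 hr and an adjusted p-value, for genes under 0.01 in that p-value and over 1 in absolute log2 fold change (2508 genes for S80A, 2335 for WT, 1562 in both).

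The deposited signal proved to be whole reads over a size factor of the library (0.834 to 1.29), since 100% of values were whole multiples of a library's smallest step to within 0.01 reads. As the values are not counts, the main test was limma on log2(scaled reads + 1), over the 1562 shared genes and all 12 libraries for the interaction, and over all 3281 genes and the 6 libraries of a time for S80A against WT. Benjamini-Hochberg adjusted p-values under 0.05 were called. On this scale the fold changes of low genes are understated. The count test was an alternative: edgeR on the recovered reads called 63 genes for the interaction, 1112 at 0 hr and 1581 at 3 hr, where limma called 70, 1007 and 1541. The other alternatives were other pseudocounts, a filter on low means, TMM scaling, a variance trend, DESeq2, voom, the replicate number as a block, all 12 libraries in each fit and each library left out. voom and leaving out both libraries of S80A replicate 1 were added after seeing the data. Tools were limma 3.58.1, DESeq2 1.42.0 and edgeR 4.0.16 in R 4.3.3, with figures from matplotlib 3.10.9 in Python 3.11.15.

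The members, the gene lists and the tests were chosen with earlier results of these data known. Named are all members, up to 4 listed genes of each other list by the largest authors' log2 fold change in WT (in S80A where listed only there), and the 3 genes most correlated with CXCL8 and with CXCL10. NFKB1, the targeted gene, the marker genes, ART3, ZFP36L1, FOSL1 and the interferon-route genes called higher at 3 hr were named besides. Same-numbered libraries of S80A and WT deviated together at 0 hr (correlations of 0.195 to 0.272), so the numbers pair the libraries at 0 hr. At 3 hr the correlations were 0.0724 to 0.229, below the limit of 0.1 in 1 pair, and within a genotype the libraries of both times correlated by 0.171 to 0.376. No 2 replicates agreed within sampling noise (chi-square per gene of 9.53 to 198.6).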

Additional observations from a re-analysis of the deposited data

Results flagged for a closer look

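For 2 members the LPS response differed between the genotypes by the test of the difference itself. The response of CXCL2 was 2.65 log2 larger in S80A than in WT cells, and that of CXCL6 was 2.91 log2 larger (limma interaction, adjusted p = 0.0209 and 0.0441). In both genes the resting groups rest on few reads, 11 in S80A and 36 in WT cells for CXCL2 and 3 in S80A and 15 in WT cells for CXCL6, and the part of this in the result was not tested.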

How the results depend on the processing

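At 3 hr the 5 calls of neutrophil-attracting genes held under other pseudocounts, the filter on low means, TMM scaling, a variance trend, edgeR, DESeq2, voom and the replicate block (limma adjusted p of 0.00691 to 0.0377 with the block), and 4 to 5 members were called with a library left out, in 1 case CXCL9 in place of CXCL6. With all 12 libraries in the fit 1 member was called at 3 hr and 2 at 0 hr. TMM scaling moved the median genotype difference of all genes by -0.23 at 0 hr and -0.21 at 3 hr and gave 796 higher and 754 lower calls at 3 hr, where the authors' scaling gave 959 and 582, and 459 and 506 at 0 hr, where it gave 660 and 347. At 0 hr edgeR and DESeq2 called 1 member and the replicate block 1, and 0 to 1 were called with a library left out, when 497 to 1200 of all genes were called. CXCL11 at 0 hr was 0.000919 log2 by voom, and with a library left out the difference at 0 hr ranged from -0.47 to 1.18 for CXCL1, -0.46 to 0.99 for CXCL3 and -0.68 to 0.33 for CXCL11, and at 3 hr from -1.30 to 0.12 for CXCL11. For the interaction, 1 member was called with a pseudocount of 0.5 and by edgeR, and 0 to 2 with a library left out, when 36 to 123 of all genes were called. All genes called were 117 with a pseudocount of 8, 155 by DESeq2, 187 without S80A replicate 1 at both times and 464 over all listed genes. The interaction of CXCL10, near 0, was -0.0665 with a pseudocount of 8, -0.00718 under TMM, -0.0335 by voom and -0.31 without S80A replicate 1. With a library left out it ranged from -0.61 to 0.83 for CXCL10, -1.49 to 0.81 for CXCL8 and -1.25 to 0.17 for CXCL11. The replicate block changed no other member's call. The blocked interaction called 104 genes and kept CXCL2 and CXCL6 (limma adjusted p = 0.0111 and 0.0212), where same-numbered libraries deviated together within a genotype but not in every pair between genotypes. Between genotypes at 3 hr 1 pair correlated below the limit of 0.1, yet 5 of 6 libraries correlated best with their own number. Whether the numbers pair the libraries at 3 hr is therefore not settled. The cause of these changes was not tested. The precision of CXCL6, CXCL2, CXCL3 and CXCL9 at 0 hr is limited by 3 to 36 reads a group.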
